A study of Zea mays with 6 samples.

Results

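The basal endosperm transfer layer is the sheet of endosperm cells at the base of the maize kernel, next to the maternal tissue that delivers sugars and amino acids. Its cells carry wall ingrowths that enlarge the membrane used for uptake. They express a cell wall invertase that splits incoming sucrose, and many small secreted cysteine-rich peptides, several of them related to defensins. In maize, kernels that lack this invertase stay small, which gave the gene the name miniature1.

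The 6 genes described here were taken by name from the 49785 rows of the deposited count table: miniature1 (mn1, LOC542590), betl2 (LOC542570), betl3 (LOC542003), betl4 (LOC542004), betl10 (LOC100126948) and LOC100382777, listed as MEG5-like. All 6 were found. The libraries, 3 of wild type (WT) and 3 of shrek1-/- (shrek1), came from maize kernels collected 13 days after pollination, and held 17145006 to 20288565 counts. The plants grew in a field, and RNA was taken from kernels after the pericarp had been removed. No source used here says whether libraries of a genotype stem from different ears, or how the WT line is related to the mutant, so p-values measure only the spread between these libraries, which may be technical. No row could be matched to the gene named by the shrek1 allele, so the genotype labels were not checked against it.

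In 5 of the 6 genes the shrek1 libraries did not resemble each other. Replicate 1 was the highest of the 3 and replicate 3 the lowest for mn1, betl2, betl3, betl4 and betl10. Summed over these 5 genes, the level was 16.5, 11.6 and 13.1 CPM (counts scaled to the size of the library, with TMM factors) in WT replicates 1 to 3. It was 73.3, 31.1 and 7.08 CPM in shrek1 replicates 1 to 3. The WT libraries stayed within a narrow band, while shrek1 replicate 1 lay above that band, replicate 2 also above it, and replicate 3 below it. In these bulk samples, fewer cells of a type and less RNA per cell cannot be told apart.

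**Figure D1:**
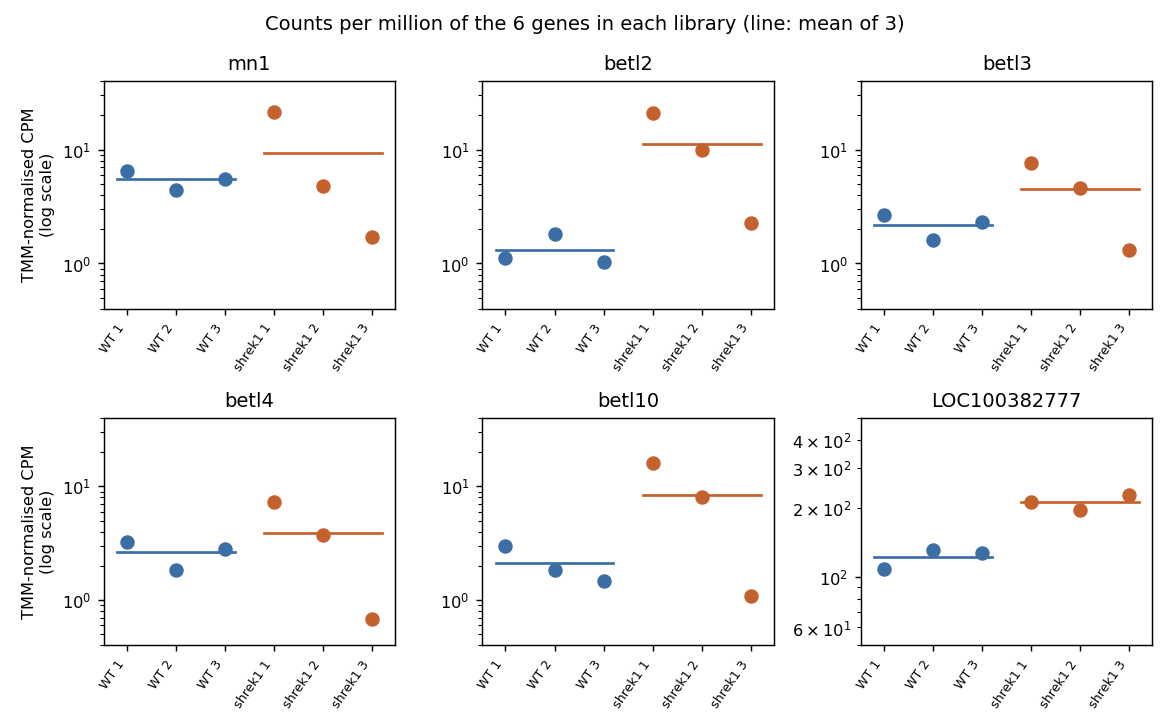
TMM-normalised CPM (log scale) of the 6 genes in each of the 6 libraries, with WT in blue, shrek1 in orange and a line at the mean of 3 libraries. The 5 named transfer layer genes are highest in shrek1 replicate 1 and lowest in shrek1 replicate 3 among the shrek1 libraries, at 21.4 and 1.71 CPM for mn1, while LOC100382777 stays between 196 and 229 CPM in shrek1.

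The genes lie at separate places in the genome, on the coordinates of the deposited table, whose starts equal those in Zm-B73-REFERENCE-NAM-5.0 for all 6. The mn1 gene is on chromosome 2 (58739675 to 58742786, plus strand). The betl3 gene (133824618 to 133825132) and the betl10 gene (157660845 to 157661383) are on the plus strand of chromosome 3. On chromosome 4 are betl2 (36249290 to 36249885, minus strand), betl4 (215197632 to 215198215, plus strand) and LOC100382777 (222280075 to 222283501, plus strand). No other gene of the table overlaps any of them. No sequence of these genes was used here.

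The annotation sets LOC100382777 apart from the others. The deposited description pairs the name of MATERNALLY EXPRESSED GENE 5 with an RNA recognition motif, a domain of RNA-binding proteins, whereas the MEG proteins are small secreted peptides. Its gene length in the table is 1310 bases, against 420 to 503 bases for the 4 betl genes. It was also the most abundant of the 6 by far. Per length, its mean level in WT was 93.7 ± 11.5 FPKM (fragments per kilobase and library size, SD, n = 3), higher than 97.6% of the genes with a value above 0 in any library.

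The label of a transfer layer gene was checked against the level of the other 5 in WT. Their mean levels were 2.71 FPKM for mn1, 2.72 for betl2, 4.88 for betl10, 5.20 for betl3 and 5.21 for betl4, which is higher than 54.0% to 63.8% of genes with a value above 0. Their ranges over the 3 WT libraries overlapped in neighbouring pairs of this order. The defining gene of this cell type, betl1 (LOC542477, described as betl1c), had no count in any of the 6 libraries. A count of 0 allows up to 3 counts, or 0.141 to 0.185 CPM. If closely related copies exist, counting may have dropped shared reads, so this 0 is uncertain. By their FPKM, the transcripts of the other 5 genes were thus present at low levels in peeled WT kernels.

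The invertase gene mn1, whose enzyme cleaves sucrose outside the transfer cells, had 118, 89 and 116 counts in WT replicates 1 to 3 and 369, 77 and 30 in shrek1 replicates 1 to 3. In CPM this was 6.53, 4.46 and 5.47 in WT and 21.4, 4.76 and 1.71 in shrek1. Replicate 1 of shrek1 was above every WT library, replicate 2 lay among them and replicate 3 was below all of them. The mean went from 5.49 ± 1.04 to 9.28 ± 10.6 CPM (SD, n = 3 each), with a log2 fold change of 0.76 ± 0.80 (SE) that did not pass the quasi-likelihood test of edgeR (p adjusted over all tested genes by Benjamini-Hochberg = 0.44, with a threshold of 0.05). Without shrek1 replicate 1 the sign turned, to a log2 fold change of -0.76 (adjusted p = 0.133 by the same edgeR test). For this gene the 3 shrek1 libraries give no common direction.

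The peptide gene betl2, also known as basal layer antifungal protein 2, had 20, 36 and 22 counts in WT and 364, 161 and 40 in shrek1. In CPM, WT replicates 1 to 3 stood at 1.11, 1.80 and 1.04, and the shrek1 replicates at 21.1, 9.95 and 2.29. All shrek1 libraries lay above all WT libraries, although the lowest shrek1 value was close to the highest WT value. It rose by a log2 fold change of 3.07 ± 0.79 (adjusted p = 0.0127 by edgeR's quasi-likelihood test). The call was lost without WT replicate 1 (2.89, adjusted p = 0.0608) or without WT replicate 3 (2.86, adjusted p = 0.0543), by the same edgeR test.

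The betl10 gene carries a gamma-thionin domain, the fold of plant defensins. It had 54, 37 and 31 counts in WT and 274, 129 and 19 in shrek1, or 2.99, 1.85 and 1.46 CPM in WT and 15.9, 7.97 and 1.09 CPM in shrek1. Replicates 1 and 2 of shrek1 were above the WT libraries and replicate 3 was below them. The log2 fold change was 1.99 ± 0.84, with adjusted p = 0.0756 by edgeR's quasi-likelihood test.

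The remaining pair, betl3 and betl4, showed the same order of libraries. The betl3 gene, whose peptide resembles defensins, stood at 2.66, 1.60 and 2.31 CPM in WT and at 7.70, 4.64 and 1.31 CPM in shrek1, and the betl4 gene at 3.21, 1.85 and 2.83 CPM in WT and at 7.29, 3.77 and 0.686 CPM in shrek1. For both, shrek1 replicates 1 and 2 exceeded all WT libraries and replicate 3 fell short of all of them. Their log2 fold changes were 1.05 ± 0.55 and 0.57 ± 0.69, with adjusted p = 0.125 and adjusted p = 0.493 by edgeR's quasi-likelihood test. Without shrek1 replicate 1 the value of betl4 was -0.24.

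LOC100382777 varied little within each genotype. It had 108, 132 and 128 CPM in WT and 213, 196 and 229 CPM in shrek1, with no overlap between the groups. It rose by a log2 fold change of 0.80 ± 0.10 (adjusted p = 7.25e-05 by edgeR's quasi-likelihood test), and the call held without any single library, at 0.64 to 0.86. In shrek1 its highest library was replicate 3, the library in which the other 5 genes were lowest.

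By the edgeR test, 2 of the 6 genes rose (betl2 and LOC100382777), none fell and 4 did not pass. Of all 22681 tested genes, 32% were called higher in shrek1, 32.4% lower and 64.4% in either direction, so this count is near the background. At an unadjusted p under 0.05 there were also 2 of 6, and 15334 of all tested genes. The CPM ranges of the genotypes did not overlap for 2 of the 6 genes, both with shrek1 above WT. Of all tested genes, 70% had no overlap, and 34.7% of all tested genes had no overlap with shrek1 above WT. All 6 genes passed the filter on low counts, with at least 12 counts in every library. Together the 6 genes held 0.0151% ± 0.0017 of all counts in WT and 0.0226% ± 0.00318 in shrek1, most of it from LOC100382777.

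Leaving out shrek1 replicate 3, the lowest shrek1 library for mn1 and the 4 betl genes, changed the calls. Leaving out the lowest library raises a fold change by construction, and leaving out the highest lowers it. The values below thus show how far the calls depend on single libraries and give no further support for a rise. Without replicate 3, 5 of the 6 genes were higher in shrek1, against 29.9% of the 23363 genes tested in that fit. The log2 fold changes became 3.56 for betl2 (adjusted p = 4.82e-05), 2.52 for betl10 (adjusted p = 0.000357), 1.51 for betl3 (adjusted p = 0.00181) and 1.09 for betl4 (adjusted p = 0.0185), by edgeR's quasi-likelihood test. The value of mn1 was 1.27 and did not pass (adjusted p = 0.136 by that test). Without shrek1 replicate 1 instead, 2 of 6 were higher, betl2 at 2.22 and LOC100382777 at 0.80, where 29% of 23364 tested genes were higher. In that fit the log2 fold change was 1.12 for betl10 (adjusted p = 0.234) and 0.45 for betl3 (adjusted p = 0.469), by the same edgeR test.

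**Figure D2:**
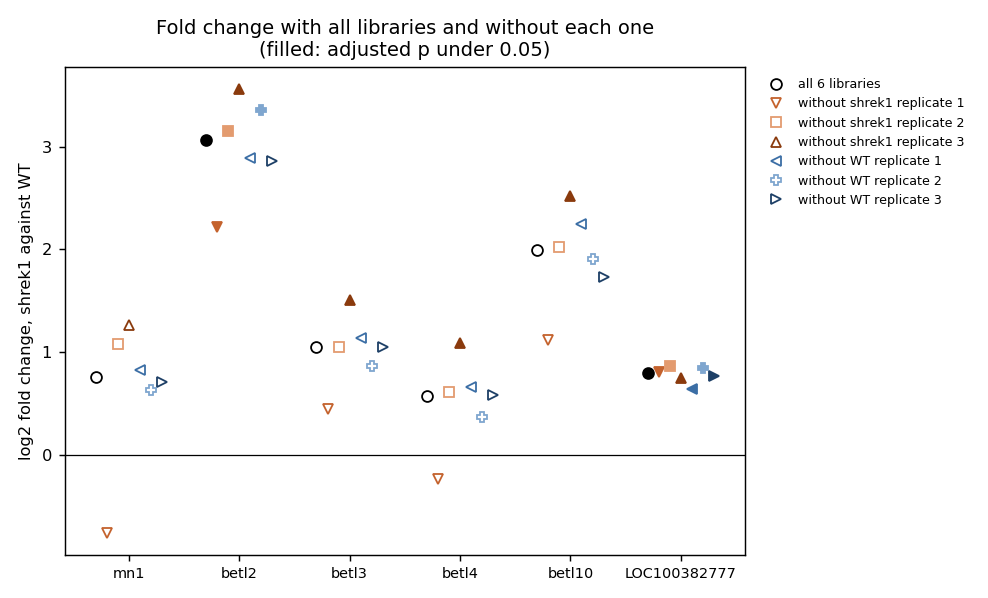
Log2 fold change of shrek1 against WT for the 6 genes, with all 6 libraries and without each library in turn, where filled symbols have an adjusted p under 0.05 by edgeR's quasi-likelihood test. The value of mn1 spans -0.76 to 1.27 depending on which library is left out, and that of LOC100382777 spans 0.64 to 0.86.

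The difference between shrek1 replicates 1 and 3 was set beside an interval for counting error. The level in replicate 1 over that in replicate 3 was 12.5 for mn1 (95% exact counting interval 8.58 to 18.7), 9.22 for betl2 (6.64 to 13.1) and 14.6 for betl10 (9.18 to 24.6). It was 5.86 for betl3 (3.74 to 9.56) and 10.6 for betl4 (5.88 to 21.1). For LOC100382777 the same ratio was 0.93 (0.889 to 0.973). These intervals leave out variation between libraries, and reads without molecular identifiers are not independent molecules. They also do not allow for the choice of these libraries as highest and lowest for mn1 and the betl genes. Replicate 1 also exceeded replicate 2, by 4.49 times for mn1 and by 1.66 to 2.12 times for the 4 betl genes. In WT the highest library exceeded the lowest by 1.47 times for mn1 and by 1.66 to 2.05 times for the 4 betl genes.

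Few tested genes varied as much among the shrek1 libraries as mn1 and the betl genes named below. The genes were chosen with earlier results of these data known. Their places by range thus describe the size of the spread and give no independent support for it. The range over 3 libraries was taken on the scale of log2 of CPM plus 0.5. Among the 22681 tested genes ranked by their range in shrek1, betl10 was at place 2 (a range of 3.37), mn1 at 3 (3.30), betl2 at 8 (2.95), betl4 at 13 (2.72) and betl3 at 41 (2.18). The median range of the 12354 tested genes with a mean of 1 to 20 CPM, the class that holds these 5 genes, was 0.40 in shrek1 and 0.38 in WT. Ranked by their range in WT, the 5 genes stood between place 1984 and place 6113. LOC100382777 was at place 14524 in shrek1, with a range of 0.23.

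**Figure D3:**
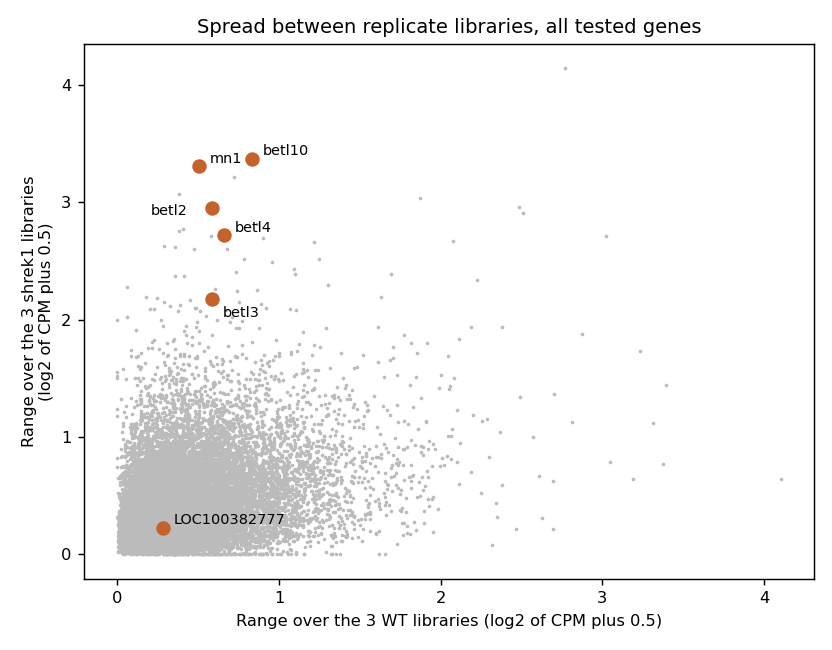
Range of log2 of CPM plus 0.5 over the 3 shrek1 libraries (vertical) against the range over the 3 WT libraries (horizontal), 1 point per tested gene, with the 6 genes in orange. The 5 named transfer layer genes sit at the top, at 2.18 to 3.37 in shrek1 and 0.50 to 0.83 in WT, and LOC100382777 sits within the mass of genes.

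The make-up of the summed counts of the 5 genes also differed between the genotypes, in a ratio that library size does not enter. Gene length may enter it, as mn1 has 2021 bases and the 4 betl genes have 420 to 503. With an offset for gene length in the edgeR fit, the log2 fold change of mn1 went from 0.76 to 0.83. Those of all 4 betl genes fell, that of betl2 from 3.07 to 2.26. The shares themselves were not recomputed with this offset, so the part of length in them was not tested. Of the summed counts of the 5 genes, betl2 held 6.71%, 15.6% and 7.91% in WT replicates 1 to 3 and 28.8%, 32.01% and 32.3% in shrek1 replicates 1 to 3. The share of betl2 was thus alike in the 3 shrek1 libraries, although their summed counts were 1266, 503 and 124. The widest shrek1 interval, in replicate 3, was 24.1% to 41.2%, and the interval of the highest WT library, replicate 2, was 11.2% to 20.9% (95% Clopper-Pearson, counting error only).

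The share of mn1 was 39.95% ± 1.63 in WT and 22.9% ± 7.01 in shrek1 (SD, n = 3 each), and that of betl4 was 19.02% ± 2.81 in WT and 10.6% ± 1.34 in shrek1. For both, as for betl2, the genotypes did not overlap. No background was drawn for such shares, and in CPM 70% of all tested genes had no overlap, so separation is common here. The shares of betl3 (15.9% ± 1.90 and 14.7% ± 4.03) and of betl10 (15.1% ± 3.57 and 20.9% ± 5.20) overlapped. Since the 5 shares add up to the whole, a higher share of 1 gene lowers the others, and they were not tested.

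**Figure D4:**
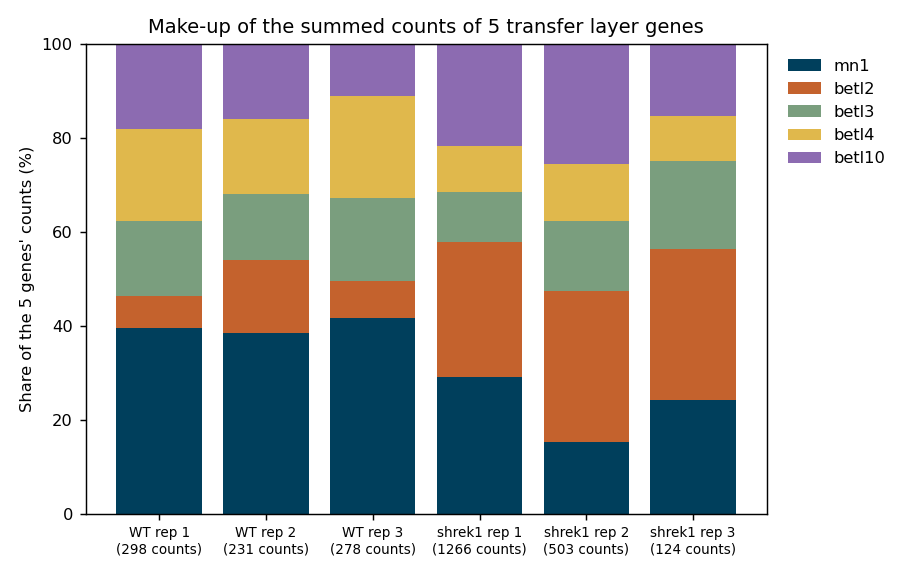
Share (%) of each of 5 transfer layer genes in their summed counts, 1 bar per library, with the summed counts under each bar. The part of betl2 is 6.71% to 15.6% in WT and 28.8% to 32.3% in shrek1, while the summed counts run from 124 to 1266 over the shrek1 libraries.

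The wider transfer layer list, by symbols and description words, held 38 genes, of which 28 had a count and 7 passed the filter. Beyond the 6 genes above these were 19 MEG genes, 10 further genes with the domain of basal layer antifungal peptides (BAP), betl9, betl1 and the transfer cell response regulator tcrr1. Of the 7 tested genes 2 rose, none fell and 5 did not pass, where 32% of all tested genes were higher and 32.4% lower. The median log2 fold change was 0.80, which is the value of LOC100382777, against -0.01 over all tested genes. Without shrek1 replicate 3, 5 of these 7 genes were higher, against 29.9% of all genes tested in that fit. All 5 were among the first 6 genes, for most of which that library was the lowest in shrek1. The seventh tested gene, betl9 (LOC100286270), described with a lipid transfer domain, had 25.6, 11.3 and 27.5 CPM in WT and 46.9, 22.9 and 7.77 CPM in shrek1, with a log2 fold change of 0.27 ± 0.65 (adjusted p = 0.741 by edgeR's quasi-likelihood test). It too was highest in shrek1 replicate 1 and lowest in replicate 3, and held place 23 by range.

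The MEG genes include MEG1, a maternally expressed imprinted gene whose peptide promotes transfer cell formation. Apart from 1 gene with no chromosome, they lie together on chromosome 7 (12755676 to 13496490, 18 genes), and 11 of the 19 had a count. Summed over the family, WT replicates 1 to 3 had 11, 11 and 17 counts, and the shrek1 replicates had 166, 58 and 13. MEG1 itself (LOC103632056) had 3, 2 and 2 counts in WT and 74, 16 and 3 in shrek1. A MEG2-like gene (LOC103632049) had 5, 1 and 7 counts in WT and 35, 20 and 8 in shrek1, and a MEG1-like gene (LOC111589745) had 1, 3 and 2 in WT against 43, 7 and 1 in shrek1. The gene for maternally expressed protein 9 (LOC103632050) had no count in WT and 2, 15 and 0 in shrek1. The other 7 MEG genes with a count were LOC109940896, LOC109940883, LOC111589773, LOC103632053, LOC109939215, LOC109941002 and LOC109940842, with 9 counts over the 6 libraries in each of the first 2 and 1 or 2 in each of the others. Per 100 counts of the 5 genes, the MEG genes held 3.69 to 6.12 counts in WT and 10.5 to 13.1 in shrek1. With 11 to 17 MEG counts in WT and 13 in shrek1 replicate 3, these values carry large counting error, and they were not tested.

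The BAP genes encode small antifungal peptides of the transfer layer. The 10 listed beside betl2 form a group of 8 on chromosome 10 (82114709 to 82414940) and a pair on chromosome 4, which lies 35134 bases or more from betl2, and 9 of the 10 had a count. Summed, they had 25, 38 and 28 counts in WT replicates 1 to 3, and 131, 50 and 15 in the shrek1 replicates. Among them bap-3b (LOC542025) had 3, 2 and 3 counts in WT and 31, 12 and 0 in shrek1, and bap-1a (LOC542024) had 5, 5 and 5 in WT and 21, 8 and 1 in shrek1. LOC103641297 differed from the rest, with 7, 13 and 7 counts in WT and 8, 6 and 7 in shrek1. LOC100279139, LOC100279126, LOC542669, LOC103641296, LOC103653087 and LOC542752 had 6 to 48 counts in all and, like the others, were highest in shrek1 replicate 1. Per 100 counts of the 5 genes, the BAP genes held 8.39 to 16.5 counts in WT and 9.94 to 12.1 in shrek1, which overlap. Both families have closely related copies, whose reads the counting may have split or dropped, so single genes in them are uncertain.

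The response regulator tcrr1 (LOC103653387), which acts in transfer cells, had 4, 4 and 4 counts in WT and 15, 4 and 0 in shrek1.

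Markers of other cell types were read in the same libraries, where 32% of all tested genes were higher in shrek1 and 32.4% lower. Genes of the embryo surrounding region, the endosperm domain around the embryo, had 41, 6 and 20 summed counts in WT and 85, 43 and 7 in shrek1 replicates 1 to 3, which is 2.27, 0.301 and 0.943 CPM in WT and 4.92, 2.66 and 0.40 CPM in shrek1, with 4 of its 6 genes read and 2 without a count. The order of the shrek1 libraries was that of the 5 transfer layer genes, but the WT libraries of this list differed more from each other than those of the 5 genes. Both of its tested genes, esr2 (LOC542448) and esr6 (LOC606439), had adjusted p = 0.287 and adjusted p = 0.268 by edgeR's quasi-likelihood test. The embryo list was at 194 to 218 CPM in shrek1 and 10261 to 12824 CPM in WT, with 20 of 29 genes read, and 17 of 19 tested genes lower and none higher. The aleurone list was at 982 to 1213 CPM in shrek1 and 544 to 601 CPM in WT, with 21 of 23 genes read, and 5 of 17 tested genes higher and 8 lower. Its median log2 fold change was -0.55, so the sum does not describe most of its genes. The sum leans on nkd1 (LOC542199), with means of 180 CPM in WT and 377 in shrek1. It also leans on LOC100285351 (30.9 and 258 CPM), which is named pac1 but described with a Tim10/DDP zinc finger. The zein list, of the starchy endosperm, was at 53597 to 74724 CPM in shrek1 and 132886 to 183810 CPM in WT, with 60 of 67 genes read, and 44 of 56 tested genes lower and 2 higher. The ratio of shrek1 replicate 1 to replicate 3 was 12.3 for the embryo surrounding region (95% counting interval 5.72 to 31.5), 1.03 for the embryo list, 0.84 for the aleurone list and 0.717 for the zein list. Their part in the result was not tested.

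**Figure D5:**
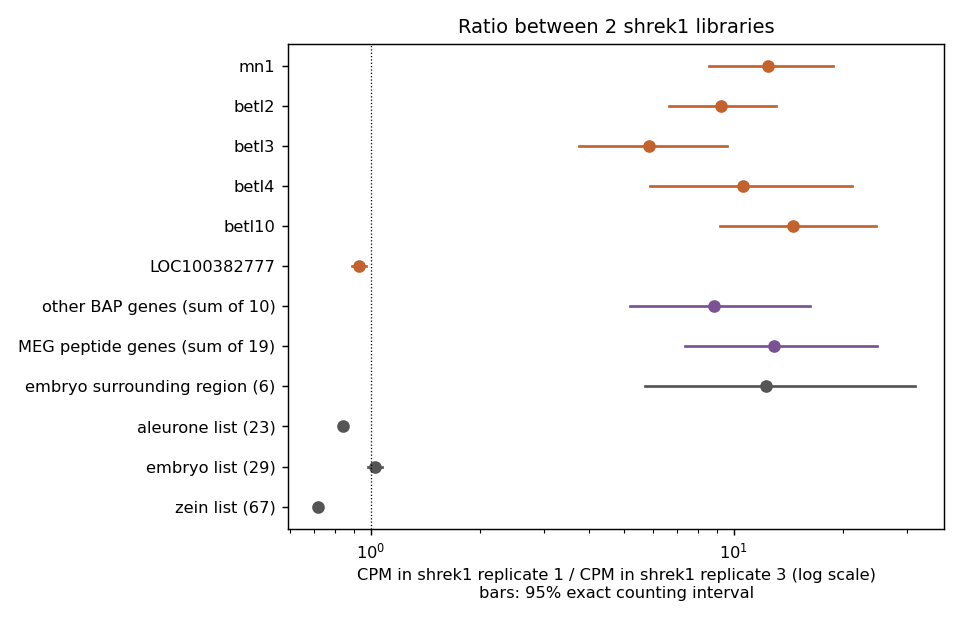
Level in shrek1 replicate 1 divided by that in shrek1 replicate 3 (log scale), with 95% exact counting intervals, for the 6 genes (orange), the summed MEG and BAP genes (purple) and summed lists of other cell types (grey). The 5 named transfer layer genes lie at 5.86 to 14.6 and the embryo surrounding region at 12.3, while LOC100382777 and the aleurone, embryo and zein lists lie between 0.717 and 1.03.

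The lists of other sugar-handling genes had calls in both directions, or none, where 32% of all tested genes were higher and 32.4% lower. Of 4 tested cell wall invertase genes, mn1 included, none passed edgeR's test in either direction, and incw1 (LOC542314) was at 12.8, 9.32 and 6.51 CPM in WT and 11.6, 9.77 and 9.94 CPM in shrek1. Of 8 tested soluble invertase genes 3 rose and 3 fell. Of 14 tested genes in the list for SWEET sugar transporters 5 rose and 8 fell. Among them a gene described as SWEET4 (LOC100273706), a transporter class that moves hexoses, was at 164, 156 and 140 CPM in WT and 82.4, 83.0 and 110.4 CPM in shrek1, and fell by 0.74 ± 0.12 on the log2 scale. Its highest shrek1 library was replicate 3, the library in which mn1 and the betl genes were lowest. This gene was not in the transfer layer list, so statements on that list do not cover it. Since the lists were made by words, the SWEET list also holds a glucosyltransferase (LOC103627875, a log2 fold change of 0.50 ± 0.08), and the invertase inhibitor list also holds pectinesterase genes. In the inhibitor list 2 of 16 tested genes rose and 8 fell.

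Of 6 tested defensin genes 2 rose and 4 fell, beside 32% higher and 32.4% lower among all tested genes. The most abundant, LOC100281766, was at 524 to 685 CPM in WT and 278 to 435 CPM in shrek1, and LOC100280590 was at 116 to 144 CPM in WT and 575 to 895 CPM in shrek1. In the list of response and phosphotransfer regulators, the class of tcrr1, 5 of 30 tested genes rose and 10 fell.

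Other genes had profiles close to those of the 6 genes. Likeness was the root mean square difference over the 6 libraries of log2 of CPM plus 0.5 centred on the WT mean, for genes with a described protein. The gene nearest to the mean profile of the 6 was the auxin-responsive SAUR33 (LOC100304064), at a distance of 0.149, with 7.87, 4.08 and 0.857 CPM in shrek1 and 1.45 to 1.89 CPM in WT. The next were esr6 (0.301), a salicylic acid-binding protein 2 gene (LOC103636584, 0.355), a pectinesterase inhibitor 10 gene (LOC103650551, 0.359) and a MYB domain gene (LOC103650722, 0.364). The genes nearest to LOC100382777 were others, at 0.0427 to 0.0524: a pentatricopeptide repeat gene (LOC103644348), a chromatin assembly factor gene (LOC542545), a cytochrome P450 gene (LOC100277073), a polyadenylate-binding protein gene (LOC103653663) and a gene of a cdc7-like kinase (LOC103638924).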

How the data were processed

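The deposited count table held raw counts per gene, not normalized by the authors, and the deposited FPKM table held the authors' values per gene length and library size. HISAT2 2.0.5 and featureCounts 1.5.0-p3 are named in the submitters' processing notes. Roles, strand setting and genome build are not given in the sources used here. Libraries were made with a strand-keeping kit, per the labels' protocols.

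Totals were 17145006 to 20288565 counts. Counts were compared in R 4.3.3 with edgeR 4.0.16 (filterByExpr, TMM, robust quasi-likelihood test, two-sided), with Benjamini-Hochberg adjustment over 22681 genes. Standard errors were derived from fold change and F value and are approximate. On simulated data with 200 changed genes the test recovered 69.9% at a log2 fold change of 1 and 96.1% at 2, over all tested genes, whose common biological coefficient of variation was 0.149. That of the 5 genes other than LOC100382777 was 0.452 to 0.664, so these shares do not describe them. Alternatives used DESeq2 1.42.0 and limma 3.58.1.

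The genes and lists were chosen with earlier results of these data known. Named were the 6 genes, list genes with a count, leading genes of other lists and nearest profiles. Synonyms were matched without hyphens, and 3 genes that matched only through an ambiguous synonym were dropped from the lists. A planned motif search was not run, as no promoter sequence was used here.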

Additional observations from a re-analysis of the deposited data

How the results depend on the processing

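The number of the 6 genes called higher was 2, and 1 without a filter on low counts, and it ran from 1 (without WT replicate 1 or 3) to 5 (without shrek1 replicate 3) when single libraries were left out. For the transfer layer list the number higher was 2 of 7 tested genes. It was 7 of 22 genes with an adjusted p by DESeq2, where 24.8% of all genes were higher, and 5 of 28 without a filter, where 22.3% were. Most of the genes called in these settings had failed the main filter on low counts. Such genes had most of their counts in shrek1 replicates 1 and 2. Without single libraries the number ran from 2 to 8. The 8 were of 10 tested genes without shrek1 replicate 3, where 29.9% of all tested genes were higher, and 3 of them, not tested with all 6 libraries, passed the filter through the shrek1 libraries in which they were high. No gene of the list was lower in any setting run. The list was made by symbols and description words and may miss genes of this layer. LOC100273706, described as SWEET4, was outside it and fell. With an offset for gene length the log2 fold change of betl4 turned from 0.57 to -0.22. Those of betl3, betl10 and betl2 fell from 1.05, 1.99 and 3.07 to 0.24, 1.17 and 2.26. The value of mn1 went from 0.76 to 0.83. The betl2 call held (adjusted p = 0.0422 by edgeR's quasi-likelihood test). Without shrek1 replicate 1, betl4 and mn1 were at -0.24 and -0.76, against 1.09 and 1.27 without shrek1 replicate 3. The causes were not tested. The fold change of betl2 kept its sign in all 16 settings, at 2.22 to 3.56, and LOC100382777 kept its call in all 16, at 0.50 to 0.86. With library size as the only scaling the median of all tested genes moved from -0.01 to -0.30, and upper-quartile scaling moved it to -0.15. Higher genes then made up 34.03% and 42.3% of those called, against 49.7%.

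With the replicate number as a block, betl10 was called too (1.61, adjusted p = 0.0381 by edgeR), so 3 of the 6 genes were higher, where 31.5% of all tested genes were. Over all genes 7150 were higher and 7198 lower with the block, against 7264 and 7345 without it. Across genes, deviations of same-numbered libraries correlated at 0.096, -0.049 and 0.028. Such values cannot tell whether same-numbered libraries share more than a number, and no source used here states it. At 12 to 60 counts in most libraries, the betl genes' values carry large counting error.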
